A study of Mus musculus with 30 samples.

Results

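The genes described here are 10 genes of the circadian clock and its direct outputs in mouse quadriceps muscle: Dbp, Tef, Ciart, Bhlhe40, Cry2, Per1, Per2, Per3, Nr1d2 and Arntl (also named Bmal1). They were chosen by name, with earlier results of these data known. All 10 had an entry among the 16475 gene entries measured. Whole quadriceps of male mice was hybridised to Affymetrix arrays, 1 mouse per array and 10 mice in each of 3 groups. The labels spell the strain C56BL/6J, and the series text C57BL/6J. LF day 0 mice were 12 weeks old and were killed at the end of a low fat run-in of 3 weeks. LF day 56 mice stayed on the low fat diet for 56 more days and were 20 weeks old. HF day 56 mice had the same run-in, were then fed a high fat diet for 56 days and were also 20 weeks old. Mice were assigned at random to the day 56 diets, and no group carried a genetic change by the labels. The labels used here give the day of killing and no hour. In whole muscle, fewer cells of a type and less RNA per cell cannot be told apart.

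The clock is a loop of transcription that runs in nearly every cell. ARNTL and its partner CLOCK bind E-boxes and switch on their own repressors, the Per and Cry genes, Ciart and Bhlhe40, together with the output factors Dbp and Tef and the nuclear receptors of the Nr1d family. NR1D proteins in turn repress Arntl through ROR elements, so that in muscle and other tissues Arntl peaks opposite to Dbp and the Per genes, and DBP and TEF pass the rhythm on through D-boxes. The muscle clock is known for timing the use of glucose and fat.

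Promoter windows from RefSeq (GRCm38.p6, 250 bases before to 50 after each start) were found for 8 of the 10 genes, 11 windows in all. Stretches that hold these elements are shown because the background above names these elements; Dbp and Nr1d2 had windows with 0 matches of any motif searched. Capitals mark the match, and each stretch is written 5′ to 3′ on the gene's strand.
Ciart promoter, E-boxes, chr3:95882247-95882364, minus strand: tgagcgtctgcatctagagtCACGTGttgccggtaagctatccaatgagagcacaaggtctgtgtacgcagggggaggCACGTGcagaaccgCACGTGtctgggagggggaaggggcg
Per1 promoter, E-box, chr11:69098763-69098808, plus strand: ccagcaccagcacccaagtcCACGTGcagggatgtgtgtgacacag
Tef promoter, E-box at the first start, chr15:81802526-81802571, plus strand: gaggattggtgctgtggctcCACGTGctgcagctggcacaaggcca
Cry2 promoter, variant E-box, chr2:92434210-92434255, minus strand: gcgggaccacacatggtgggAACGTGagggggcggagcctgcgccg
Per3 promoter, D-boxes, chr4:151044796-151044890, minus strand: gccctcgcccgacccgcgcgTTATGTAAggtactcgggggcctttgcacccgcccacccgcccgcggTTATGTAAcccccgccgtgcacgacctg
Arntl, ROR element just after the second start, chr7:113207531-113207557, plus strand: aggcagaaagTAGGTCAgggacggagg

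Both strands were searched. The E-box CACGTG was in windows of 3 of these genes (Ciart with 3 copies, Per1 and both Tef starts) and in 7.15% of all 32851 windows. The variant E-box CACGTT was in 4.68% of all windows, the D-box (TTATGTAA or TTACGTAA) in 1.06% and the ROR element TAGGTCA in 2.61%. The cAMP response element TGACGTCA, in 1.79% of all windows, was in 0 of the 11. In the 11 windows 0 matches overlapped another. A match describes the sequence and is not a measured binding site.

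The arrays were comparable in signal, with median intensities between 8.9 and 9.4 and 6334 to 6563 entries above an intensity of 20 on each. Skeletal muscle markers were strong throughout: the summed intensity of 10 of them (among them Ckm, Acta1 and Myh4) ran from 155680 to 167320. The arrays fell into sets of 21 and 9 (3 per group in the smaller) by the 5′ to 3′ ratio of spike-in RNAs, low in the larger set and high in the smaller, and results are given within each set below. Summed markers of other tissues are given as levels. The summed intensity of 9 neutrophil markers ran from 44.3 to 10356 in LF day 0 (median 2010.1) and from 42.0 to 2618 in LF day 56 (median 47.65). In HF day 56 the summed intensity of these markers ran from 41.4 to 13518 (median 1278.9). The sum of 7 slow fibre markers had medians of 1561.8, 4015.2 and 3944.4 in the same order of groups, and that of 7 tendon markers 3552.2, 2599.8 and 2579.0.

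**Figure D1:**
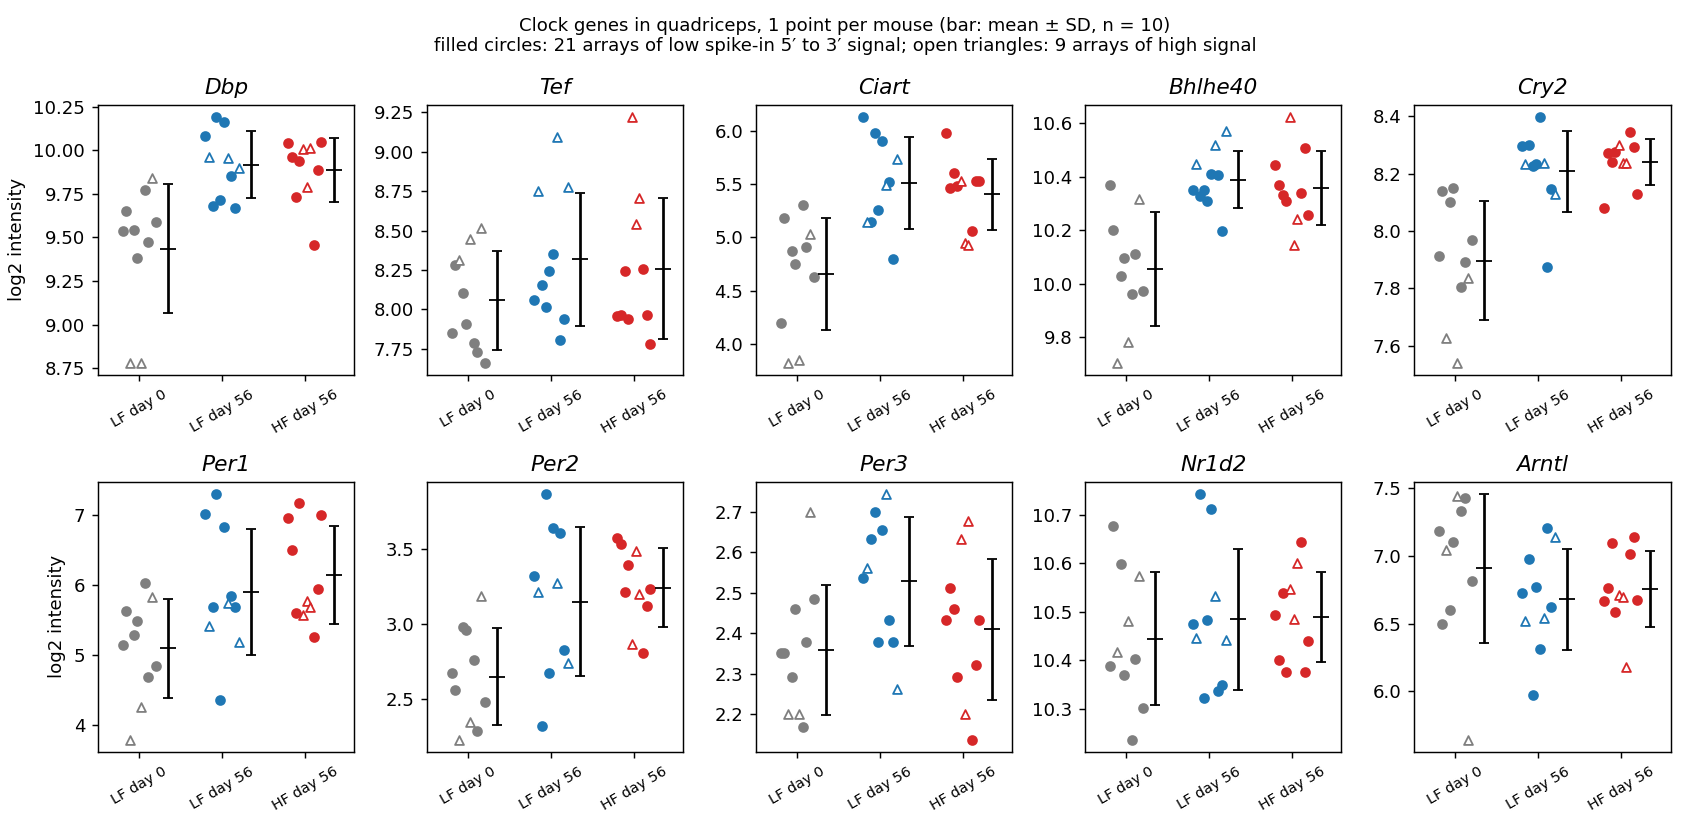
Log2 intensity of the 10 clock genes (y axis) in each of the 30 mice, by group (x axis), with the mean and SD of 10 mice as a bar. Dbp, Ciart, Bhlhe40 and Cry2 lie higher in both day 56 groups than in LF day 0, where 2 open triangles (replicates 3 and 6) are the lowest points of Dbp, Ciart, Bhlhe40 and Cry2.

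LF day 56 set against LF day 0 asks what changed over 56 days on one diet. Age, weeks of feeding and the killing day cannot be told apart in it, nor can the hour of killing, which the labels do not give and which can set the level of a rhythmic gene. Of the 10 clock genes 4 rose in limma (Dbp, Ciart, Bhlhe40 and Cry2) and 0 fell. Over all entries 0.85% were called, 0.225% as higher and 0.625% as lower. The median difference of the 10 genes was 0.32 (log2), against 0.00089 over all entries, and 9 of the 10 (all but Arntl, the activator of the loop) lay above 0, against 50.4% of all entries. At an unadjusted p below 0.05 they were 7 of 10, against 10.1% of all entries. No gene of the 10 had groups free of overlap, as 0.121% of all entries did. The 10 were chosen with earlier results of these data known. Such shares, here and below, therefore describe these genes and are no test of the set.

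Among the outputs, Dbp, a transcription factor of the PAR bZIP family that binds D-boxes, read 440.0 to 918.4 in LF day 0 (median 744.3) and 814.9 to 1167.8 in LF day 56 (median 972.5). The groups overlapped, but 8 LF day 0 mice lay below every LF day 56 mouse. Dbp rose by 0.48 ± 0.11 (log2, SE; 1.40-fold; adjusted p = 0.0291), with 10 of 10 LF day 56 mice above the LF day 0 mean. Its close relative Tef read 202.4 to 365.4 (median 257.2) in LF day 0 and 223.4 to 547.1 (median 294.2) in LF day 56. It differed by 0.26 ± 0.17 (adjusted p = 0.643), within the spread of the mice. Tef also read differently in the array sets, with LF day 56 medians of 267.1 on the 21 arrays and 438.7 on the 9.

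Among the repressors, Ciart, which binds ARNTL and dampens it, had the largest called difference of the 10. It read 14.2 to 39.6 (median 28.1) in LF day 0 and 27.8 to 69.9 (median 45.45) in LF day 56, and rose by 0.85 ± 0.18 (1.81-fold; adjusted p = 0.0138). With 6 LF day 56 mice above every LF day 0 mouse, the overlap was partial. LF day 0 replicates 1, 3 and 6 read 18.4, 14.2 and 14.5, under an intensity of 20, so the size of the rise is less certain. With 16 added to every intensity before log2, Ciart rose by 0.57 (limma, adjusted p = 0.0196). Bhlhe40, a basic helix-loop-helix factor that competes for E-boxes, read 833.6 to 1322.7 (median 1068.0) in LF day 0 and 1174.7 to 1521.5 (median 1332.2) in LF day 56. It rose by 0.34 ± 0.07 (adjusted p = 0.0124), and 7 LF day 0 mice lay below every LF day 56 mouse. Cry2, a cryptochrome that holds ARNTL and CLOCK inactive, read 186.3 to 284.3 (median 239.45) in LF day 0 and 234.5 to 337.0 (median 301.0) in LF day 56. It rose by 0.31 ± 0.07 (adjusted p = 0.0168), and all but 1 of the LF day 56 mice lay above the LF day 0 mean.

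The 3 period genes, whose proteins pair with cryptochromes to close the loop, did not pass. Per1 varied most between mice: 13.8 to 65.3 (median 37.0) in LF day 0 and 20.4 to 158.1 (median 52.7) in LF day 56. Its difference of 0.81 ± 0.32 (adjusted p = 0.351) was nearly as large as that of Ciart, but 3 LF day 56 mice (replicates 1, 4 and 6, between 113.3 and 158.1) lay above all the others. Per2 and Per3 were near background, at most 14.6 and 6.7 on these arrays, which leaves the size of any change in them uncertain. They differed by 0.50 ± 0.16 (adjusted p = 0.160) and 0.17 ± 0.07 (adjusted p = 0.410).

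In the arm that controls Arntl, Nr1d2, a nuclear receptor that represses it, was nearly level: 1206.7 to 1636.9 (median 1361.1) in LF day 0 and 1280.4 to 1714.4 (median 1410.1) in LF day 56. The difference was 0.04 ± 0.06 (adjusted p = 0.893), with a 95% interval from -0.08 to 0.16. Arntl read 50 to 173.4 (median 134.45) in LF day 0 and 62.9 to 147.9 (median 102.0) in LF day 56. It differed by -0.23 ± 0.18 (adjusted p = 0.718), the only negative difference of the 10, and its groups overlapped almost fully.

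These 4 calls leaned on 2 LF day 0 arrays. Replicates 3 and 6 were the lowest in Dbp (440.3 and 440.0), Ciart (14.2 and 14.5) and Per1 (13.8 and 19.1). Both belong to the 9 arrays of high 5′ to 3′ signal, whose remaining LF day 0 array (replicate 9) was instead the highest in Dbp at 918.4. Without replicates 3 and 6 together, a choice made after their values were seen, 0 of the 10 genes passed in limma. The differences were then 0.32 for Dbp (adjusted p = 0.0851), 0.65 for Ciart (0.0703), 0.26 for Bhlhe40 (0.0638) and 0.23 for Cry2 (0.0820). Leaving out 1 array at a time kept 3 or 4 calls. Ciart, Bhlhe40 and Cry2 passed in 20 of 20 such fits and Dbp in 15. Dbp was lost without replicate 3 or 6 of LF day 0 (0.41 each, adjusted p = 0.0586 and 0.0537) or replicate 1, 4 or 6 of LF day 56 (0.46, 0.45 and 0.45, adjusted p = 0.0579, 0.0623 and 0.0652).

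The differences within the 21 arrays and within the 9 were 0.34 and 0.80 for Dbp, 0.70 and 1.22 for Ciart, 0.23 and 0.58 for Bhlhe40, and 0.21 and 0.53 for Cry2. The difference between sets was not tested. A block for the array set left 4 genes past the test, and either set alone, which holds fewer arrays, left 0 (limma). A fit of only these groups kept Ciart and Bhlhe40, while Dbp and Cry2 had adjusted p = 0.0754 and 0.0672. Neutrophil markers had a median difference of -2.05 (9 genes) and slow fibre markers of 0.81 (7 genes), with 0 past the test in either (limma). Without the arrays with S100a8 above an intensity of 100, which left 3 LF day 0 and 6 LF day 56 arrays, the differences were 0.50 for Dbp, 0.99 for Ciart, 0.24 for Bhlhe40 and 0.27 for Cry2, and 0 passed in limma. With Myh7, the slow myosin, as a covariate 4 passed. Tendon markers were called as lower in 4 of 7 cases (median -0.48), and 0 of the 7 lay above 0. Bone and cartilage markers were called as lower in 2 of 6 (median -0.14), with 2 above 0. Endothelial markers were called as lower in 1 of 7 (median -0.26), with 0 above 0. Adipocyte markers had a median difference of 0.52, with 0 of 6 past the test (limma). Their part in the clock differences was not tested.

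At equal age, HF and LF day 56 mice show the contrast of diets. Of the 10 clock genes 0 passed in limma, where 0.0243% of all entries were called, and 0 reached an unadjusted p below 0.05, where 5.1% did. The median difference of the 10 was -0.01, and 5 lay above 0, against 51.5% of all entries. All 10 overlapped between the diets; 0.0121% of all entries did not. For the genes called over time, the HF mice read as follows. Dbp ran from 703.4 to 1057.2 (median 990.0), a difference of -0.03 with a 95% interval from -0.26 to 0.20. Ciart ran from 30.4 to 63.2 (median 45.4), with a difference of -0.10 and an interval from -0.48 to 0.27. Bhlhe40 ran from 1132.2 to 1577.9 (median 1292.7), differing by -0.03 (-0.18 to 0.11). Cry2 ran from 270.5 to 325.3 (median 305.5), a difference of 0.03 (-0.11 to 0.17). In each of these 4 genes the interval ended short of the size of the rise estimated over time on the low fat diet. Those rises have 95% intervals of their own, which start at 0.25 for Dbp, 0.48 for Ciart, 0.19 for Bhlhe40 and 0.17 for Cry2. The LF day 56 mice are shared by both comparisons.

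The other 6 genes also overlapped between the diets. Per1 had the widest interval: it ran from 38.2 to 143.7 in HF mice (median 58.05), and its difference of 0.24 could lie between -0.42 and 0.90. Arntl ran from 72.5 to 141.0 (median 104.4), with a difference of 0.07 (-0.28 to 0.43). Nr1d2 was the most tightly bounded, at 0.01 (-0.12 to 0.13). Tef, Per2 and Per3 differed by -0.06, 0.09 and -0.12, each with an adjusted p of 0.998 in limma. Near 0 such values have no firm sign: Nr1d2, Dbp, Tef, Cry2 and Arntl each changed sign in at least 1 fit with an array left out.

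**Figure D2:**
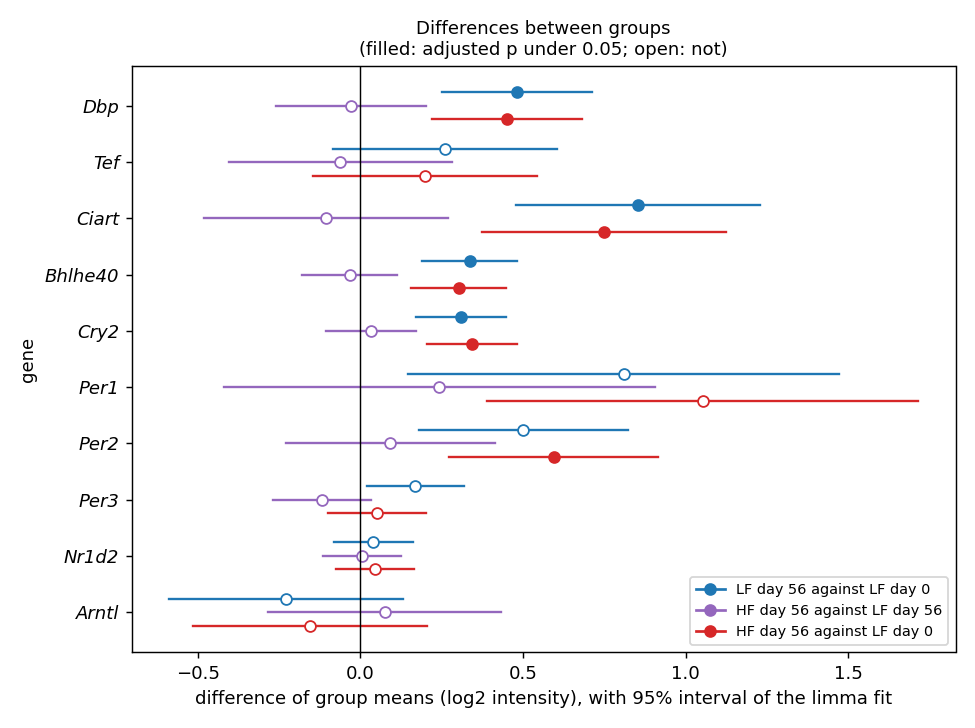
Difference of group means (x axis, log2 intensity) with its 95% interval for each clock gene (y axis) in the 3 comparisons, 10 mice per group; filled points passed an adjusted p of 0.05. All filled points compare day 56 with day 0, and every interval of the diet comparison crosses 0.

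HF day 56 was also set against LF day 0. Diet, age, weeks of feeding and the day and hour of killing cannot be told apart in it. This comparison shares the LF day 0 mice with the first one, so its values are given beside those and not as a second test of them. Of the 10 genes 5 rose and 0 fell, and 1.59% of all entries were called (0.783% higher, 0.807% lower). At an unadjusted p below 0.05 they were 6 of 10, against 11% of all entries, 9 lay above 0, against 51.1%, and 0 were free of overlap, against 0.194%. Dbp rose by 0.45 ± 0.11 (adjusted p = 0.0290), Ciart by 0.75 ± 0.18 (0.0257), Bhlhe40 by 0.30 ± 0.07 (0.0187), Cry2 by 0.34 ± 0.07 (0.00403) and Per2 by 0.59 ± 0.16 (0.0458). Cry2 was the most clearly parted, with 8 HF mice above every LF day 0 mouse. Per1 showed the largest difference, 1.05 ± 0.32, and did not pass (adjusted p = 0.113). Per2 read 4.7 to 9.1 (median 6.15) in LF day 0 and 7.0 to 11.9 (median 9.35) in HF day 56, which is near background. Per2 was called in 5 of the 20 fits that each omit a mouse, with adjusted p-values from 0.0244 to 0.0921. Arntl differed by -0.15 and Nr1d2 by 0.05 (adjusted p = 0.849 and 0.876).

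With each mouse omitted in turn, Bhlhe40 and Cry2 passed in 20 of 20 fits, Ciart in 16 (adjusted p up to 0.0578) and Dbp in 13 (up to 0.0564). The count fell to 2 without LF day 0 replicate 3 or 6 or HF replicate 1, and to 3 without LF day 0 replicate 1 or HF replicate 2, 4, 7 or 10. Without LF day 0 replicates 3 and 6 together only Cry2 passed (0.26, adjusted p = 0.0189). Dbp, Ciart, Bhlhe40 and Per2 were then at 0.29, 0.54, 0.22 and 0.50 (adjusted p = 0.0877, 0.119, 0.0877 and 0.161). On the 21 arrays only Bhlhe40 passed (0.26, adjusted p = 0.0458) and on the 9 arrays 0 genes did (limma). Cry2 differed by 0.24 and 0.59 in them, and Dbp by 0.30 and 0.80. A fit of only these groups called 3 genes (Ciart, Cry2 and Per2). Without the arrays high in S100a8 (3 LF day 0 and 4 HF arrays) 0 passed in limma, with Dbp at 0.45 and Cry2 at 0.25. Adipocyte markers were called as higher in 4 of 6 cases in this comparison (median 0.96), with 5 above 0. Tendon markers were called as lower in 4 of 7 (median -0.45), with 0 above 0. Endothelial markers were called as lower in 1 of 7 (median -0.24), with 1 above 0. Slow fibre markers had a median difference of 0.60 and neutrophil markers of -0.92, with 0 past the test in either (limma). With Myh7 as a covariate Dbp, Ciart, Bhlhe40 and Cry2 passed in limma, and Per2 did not (0.57, adjusted p = 0.0648). Per2 was also lost with array weights (0.58, adjusted p = 0.0644) and with 16 added to every intensity (0.19, adjusted p = 0.0796). Beyond these fits, the part of the markers in the clock differences was not tested.

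Of 22 other genes of the loop and its regulators 18 were measured, and limma called 0 of them in LF day 56 against LF day 0 (median difference 0.09; 14 above 0). With 0.85% of all entries called, 0 of 18 is near the background. Hlf, the third PAR bZIP factor, differed by 0.44 ± 0.13 (adjusted p = 0.101), Usp2, a rhythmic deubiquitinase, by 0.27 ± 0.09 (0.182) and Csnk1d, a kinase that marks PER proteins for breakdown, by 0.11 ± 0.04 (0.307). Nfil3, in the same list, differed by -0.56 (adjusted p = 0.36). Clock, Cry1 and Nr1d1, named here after their values were seen, differed by -0.08 (95% interval -0.23 to 0.08), 0.14 (-0.16 to 0.43) and 0.10 (-0.17 to 0.37). Between the diets 0 of the 18 passed (median -0.03). In HF day 56 against LF day 0 only Usp2 did, rising by 0.35 ± 0.09 (adjusted p = 0.0290). It was called in 13 of 20 fits that each omit a mouse and was lost without replicates 3, 5 or 6 of LF day 0 or 1, 2, 4 or 6 of HF day 56, at 0.32 to 0.34 (adjusted p up to 0.0649). The Usp2 call was also lost with array weights (adjusted p = 0.0501), without LF day 0 replicates 3 and 6 together (0.29, adjusted p = 0.123), on the 21 arrays (0.32, 0.245), on the 9 (0.42, 0.481) and without arrays high in S100a8 (0.30, 0.555). Of 14 genes known as rhythmic outputs in muscle 12 were measured and 0 passed in each of the 3 comparisons. Nampt, which makes the NAD precursor, differed by -0.15 (adjusted p = 0.386), Coq10b by 0.19 (0.550) and Myod1, the muscle lineage factor, by 0.24 (0.636) in LF day 56 against LF day 0.

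Mice of the same group also differed from one another. Group means were removed, and the 45 pairs of genes were compared over all 30 mice with a permutation test within groups (two-sided, 100000 resamples, adjusted over the 45). Of these pairs 12 passed. In 9 the genes went up and down together, and in the other 3 Arntl went opposite to Dbp, Per2 or Per3. All 9 pairs with Arntl had a negative r over the 30 mice, from -0.62 to -0.16. Negative values were found in 8 of these 9 pairs on the 21 arrays, 9 on the 9 arrays, 9 in LF day 0, 7 in LF day 56 and 6 in HF day 56.

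**Figure D3:**
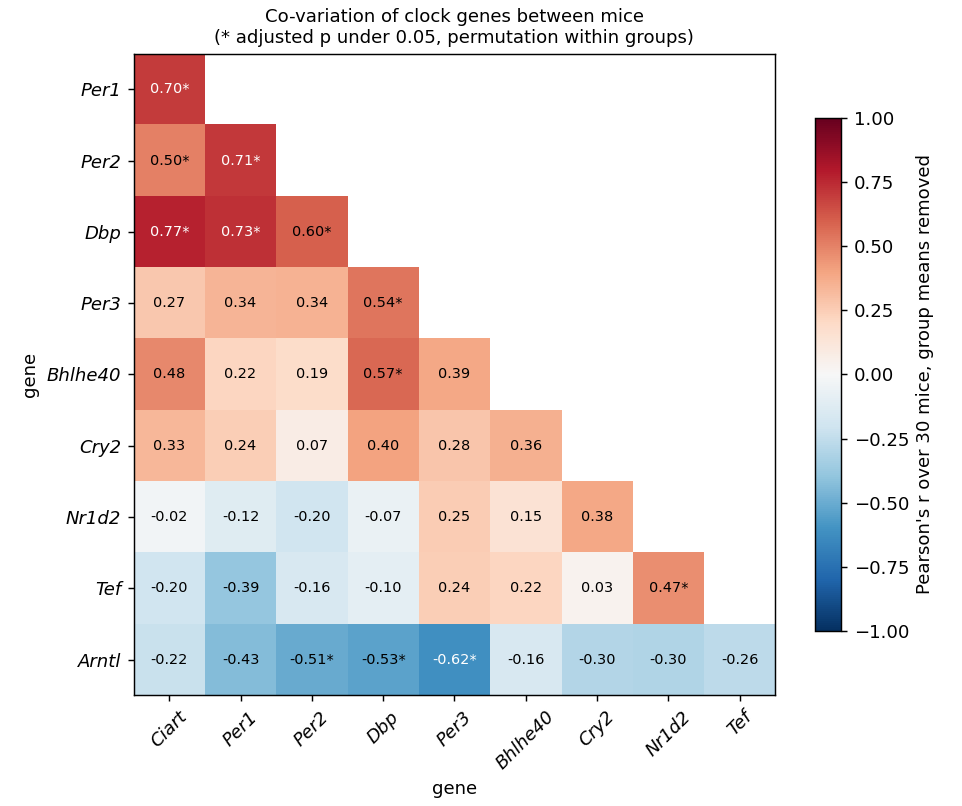
Pearson's r between each pair of clock genes (both axes) over 30 mice after removal of group means; colour runs from -1 (blue) to 1 (red) and stars mark an adjusted permutation p under 0.05. Ciart, Per1, Per2 and Dbp form a block of positive values between 0.50 and 0.77, and the Arntl row is negative throughout.

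Dbp and Ciart were most tightly linked, with r = 0.77 and rho = 0.69 (permutation p = 2e-05 and 0.00012; adjusted p = 0.0003 and 0.0018). The link was 0.63 without the 2 mice farthest in Dbp, 0.77 on the 21 low-signal arrays and 0.84 on the 9. Dbp and Per1 followed at r = 0.73 and rho = 0.73 (permutation p = 1e-05, the smallest the resamples can give, and 2e-05; adjusted p = 0.0003 and 0.00068). That r was 0.69 without the 2 farthest mice, 0.83 on the 21 arrays and 0.91 on the 9, and 0.88, 0.77 and 0.63 within LF day 0, LF day 56 and HF day 56. On the 9 arrays Dbp read 440.3, 440.0 and 918.4 in LF day 0 (replicates 3, 6 and 9). It ran there from 953.7 to 997.4 in LF day 56 and from 883.3 to 1032.1 in HF day 56. The r values of Dbp on the 9 thus rest mostly on those 3 LF day 0 mice. Per1 and Per2 had r = 0.71 and rho = 0.75 (permutation p = 6e-05 and 3e-05; adjusted p = 0.00068 for both), and Ciart and Per1 r = 0.70 and rho = 0.63 (permutation p = 2e-05 and 0.00035; adjusted p = 0.0003 and 0.00315). Each of these 4 pairs passed with any single mouse left out, and each had a positive r within all 3 groups. The r of Dbp and Ciart was weaker in HF day 56 (0.43) than in LF day 0 (0.87) or LF day 56 (0.84). LF day 56 replicate 4 was the highest of its group in both Dbp (1167.8) and Per1 (158.1), and the lowest in Arntl (62.9).

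Arntl and Dbp had r = -0.53 and rho = -0.58 (permutation p = 0.0114 and 0.00166; adjusted p = 0.0428 and 0.0125). The value was -0.56 without the 2 mice farthest in Dbp, -0.51 on the 21 low-signal arrays and -0.91 on the 9, and it lay between -0.63 and -0.50 in the 3 groups. On the 9 it rested mostly on LF day 0 replicates 3, 6 and 9, at 131.7, 173.4 and 50 in Arntl. The pair passed in 16 of 30 tests with 1 mouse left out (a check added after the data were seen), at -0.46 and an adjusted p of 0.0718 without LF day 0 replicate 9, the mouse lowest in Arntl. Arntl and Per3 had r = -0.62 and rho = -0.53 (permutation p = 0.00039 and 0.00297; adjusted p = 0.00292 and 0.0167), and -0.48 without the 2 mice farthest in Per3. It passed in 30 of those 30 tests. Arntl and Per2 had r = -0.51 and rho = -0.45 (permutation p = 0.00488 and 0.0186; adjusted p = 0.0273 and 0.0839), and -0.43 without the 2 mice farthest in Per2. It was lost without LF day 0 replicate 6 or 9 or LF day 56 replicate 4 (-0.49, -0.43 and -0.43). Per2 and Per3 are near background, so their part in these pairs is less certain than that of Dbp.

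Some pairs rested on few mice. Dbp and Bhlhe40 had r = 0.57 (permutation p = 0.00545, adjusted p = 0.0273) but rho = 0.29 (permutation p = 0.135, adjusted p = 0.320), and r was 0.23 without LF day 0 replicates 3 and 6, the mice farthest in Dbp. Cry2, although called in the group comparison, had no pair past the test over all 30 mice. Its r with Dbp went from 0.40 to -0.15 without those mice, and was -0.11 on the 21 arrays and 0.89 on the 9. Cry2 and Tef had r = 0.03 over the 30 mice, but 0.72 on the 21 arrays and 0.38 on the 9. For Cry2 and Nr1d2 these values were 0.38, 0.61 and 0.58. Over the 30 mice Tef stood outside the block formed by Dbp, Ciart, Per1 and Per2. It paired with Nr1d2 (r = 0.47, rho = 0.65; permutation p = 0.00968 and 0.0003; adjusted p = 0.0396 and 0.00315), in 19 of 30 tests with 1 mouse left out (adjusted p up to 0.0718). With its relative Dbp its r was -0.10 (permutation p = 0.581, adjusted p = 0.638). These values mix the array sets, and Tef had higher medians on the 9 arrays in each group. Within the 21 arrays and within the 9, Tef had r = 0.81 and 0.50 with Nr1d2 and -0.19 and 0.30 with Dbp. With Ciart they were 0.10 and 0.53, with Per1 -0.18 and 0.24, and with Per2 -0.12 in both. On the 21 arrays alone 7 pairs passed, 6 of them among the 12 and 0 of them negative, so that the 3 Arntl pairs did not pass there. Without the 2 farthest mice 8 passed, 1 of them negative. On the 9 alone 0 passed an exact permutation test after adjustment (9 at an unadjusted p below 0.05). All 12 pairs kept their sign in both sets and in each group alone, where 3 passed in LF day 0, 0 in LF day 56 and 0 in HF day 56 (8 and 6 at an unadjusted permutation p below 0.05).

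**Figure D4:**
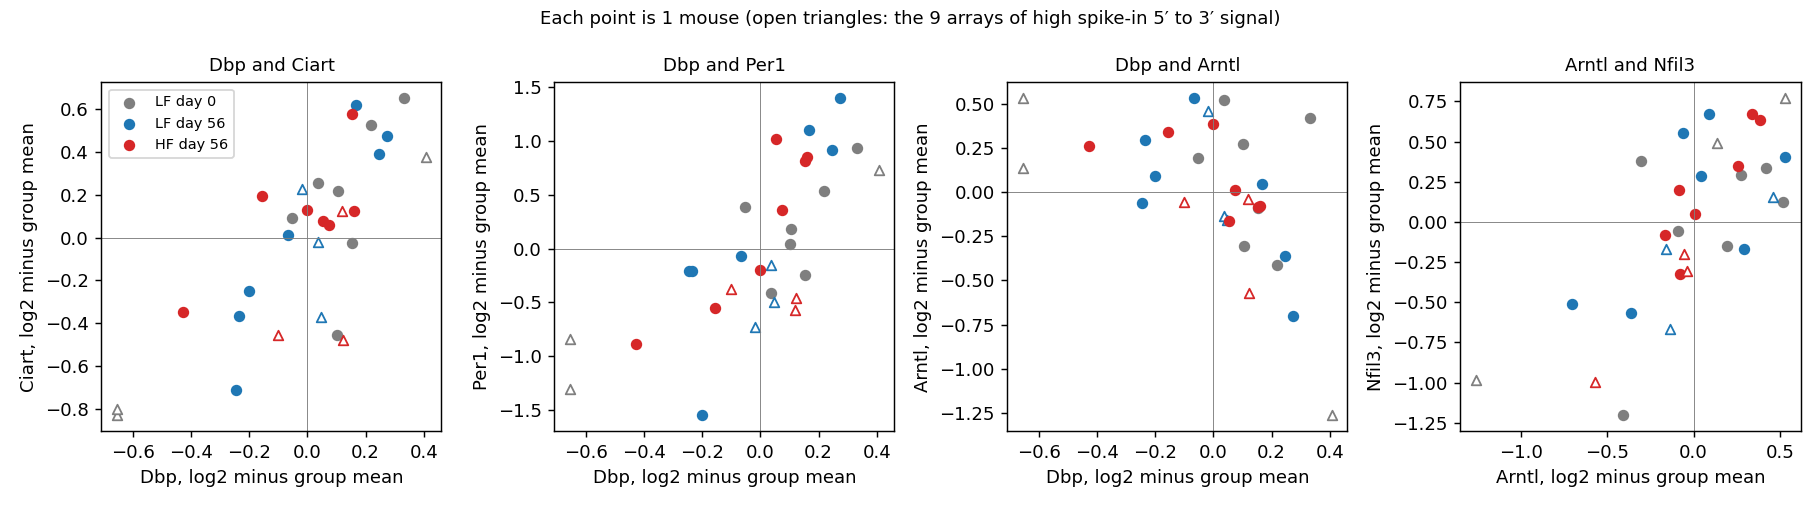
Log2 intensity minus the group mean for pairs of genes (x and y axes), 1 point per mouse, 30 mice. Ciart and Per1 climb with Dbp (r of 0.77 and 0.73), Arntl declines with it (r of -0.53), and Nfil3 climbs with Arntl (r of 0.73).

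The spread between mice differed among the genes. The residual SD of Per1 within groups was 0.78 (log2), above that of 98.9% of the 6844 entries with an intensity over 20 on at least 5 arrays, whose median was 0.19. Ciart (0.44), Arntl (0.42) and Tef (0.40) lay above 92.9% to 94.7% of them. Nr1d2 (0.13), Cry2 (0.15) and Bhlhe40 (0.16) lay below the median. Dbp varied more in LF day 0 (SD 0.37) than in LF day 56 (0.19) or HF day 56 (0.18), and Arntl likewise (0.55, 0.37 and 0.28); these differences in spread were not tested.

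The entries most like Dbp and Arntl over the 30 mice, after removal of group means, were sought among 6588 named entries with an intensity over 20 on at least 5 arrays. The measure was Pearson's r, as a description; all points share the arrays and their labelling. For Dbp the nearest were Usp2 (0.74; 0.82 on the 21 arrays and 0.90 on the 9), Sgk1 (0.74), Fam98b (0.70), Srsf3 (0.69) and Gadd45g (0.68). For Arntl the nearest was Nfil3, which competes with DBP for D-boxes (0.73; 0.64 on the 21 arrays and 0.96 on the 9). It was followed by Sap30 (0.69), Slc38a2 (0.68), Pkdcc (0.68) and Nt5dc3 (0.68). The r values of Usp2 and Nfil3 on the 9 arrays rest mostly on LF day 0 replicates 3, 6 and 9. Nfil3 read 105.8, 128.5 and 38.1 in these mice. Nfil3 ran opposite to Dbp (r = -0.58) and Usp2 opposite to Arntl (r = -0.50). Nfil3 read 32.7 to 128.5 (median 87.2) in LF day 0, 32.1 to 81.1 (median 51.05) in LF day 56 and 29.7 to 94.4 (median 58.55) in HF day 56. Its difference between LF day 56 and LF day 0 was -0.56 ± 0.23 (adjusted p = 0.36), with the same sign as that of Arntl, and neither passed.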

How the data were processed

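The 10 genes and all gene lists were chosen with earlier results of these data known. Each cell of the deposited table is a linear intensity that the authors computed with GCRMA, per the submitters' processing notes; the version, and how probes were grouped into genes, are not given in the sources used here. Values ran from 1.2 to 30599. Values were used as log2, with nothing added (pseudocount 0). After removal of 64 control entries, 16475 were tested; 15780 have 1 gene symbol, 695 have none and 0 have several.

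Group means were compared in limma 3.58.1 (lmFit, eBayes; R 4.3.3) in one model of the 30 arrays with no covariate (residual degrees of freedom 27, prior 3.97), two-sided, with Benjamini-Hochberg adjustment over all 16475 entries and a threshold of 0.05. Intervals cover 95%; the number of arrays limits the precision. Adjusted p-values over the 45 pairs, and over 20 tests against mouse numbers, are Benjamini-Hochberg values of permutation tests (Python 3.11.15, numpy 2.4.6). Scripts were tested on simulated data. Array sets were parted at the widest gap in the mean 5′ to 3′ log ratio of 4 pairs of spike-in entries (dap and thr). Named genes were all 10 genes, list genes past the test, the 3 of smallest p per list in LF day 56 against LF day 0, and the 5 entries most like Dbp and Arntl. Alternatives were other priors, weights, normalizations, filters, blocks and covariates, and leaving out arrays; leaving out LF day 0 replicates 3 and 6 together, each mouse in the correlations, and all settings for Usp2 were added after the data were seen. Promoters came from RefSeq (GRCm38.p6).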

Additional observations from a re-analysis of the deposited data

Results flagged for a closer look

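In 30 sets of 10 mice (10 genes in 3 groups), the lowest mouse lay far from the others by Dixon's test in 3, and chance alone flags about 1 in 20 such sets. Dbp of HF day 56 replicate 8 read 703.4, with a gap to the next mouse of 0.467 of the range. Cry2 of LF day 56 replicate 8 read 234.5, with a gap of 0.485. Arntl of LF day 0 replicate 9 read 50, with a gap of 0.475, and that mouse was the highest of its group in Dbp at 918.4.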

How the results depend on the processing

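Counts are for LF day 56 against LF day 0, the diet comparison and HF day 56 against LF day 0, where 4, 0 and 5 genes passed. They were 2, 0 and 3 in fits of only the groups compared, 0, 0 and 1 on the 21 low-signal arrays, 0, 0 and 0 on the 9 high-signal arrays, 0, 0 and 0 without arrays high in S100a8, and 0, 0 and 1 without LF day 0 replicates 3 and 6 (chosen after the data were seen). Single arrays left out gave 3 to 4, 0 to 0 and 2 to 5. The other 10 settings kept the counts within 1.5 times. With the replicate number as a block they were 3, 0 and 4; same-numbered mice did not deviate together (median r -0.10, from -0.53 to 0.57, and 5 of 30 arrays correlated best with its own number), and the labels give each mouse its own number. Of the 45 pairs, 12 passed over all mice, 7 on the 21 arrays, 0 on the 9 and 8 without the 2 farthest mice; with each mouse left out in turn, 7 to 14 passed (the fewest without LF day 0 replicate 6 or 9). Differences that turned sign, all of genes that had not passed, were on the 9 arrays Nr1d2 (-0.017) and Arntl (0.025) over time and Arntl (-0.20) for diet. For diet they were also Nr1d2 with array weights (-0.00868), Bhlhe40 (0.028) and Nr1d2 (-0.023) on the 21 arrays, and Cry2 (-0.014), Per2 (-0.038) and Nr1d2 (-0.040) without arrays high in S100a8. With 1 array left out, the diet differences of Dbp ran from -0.057 to 0.018, of Tef from -0.17 to 0.025, of Cry2 from -0.0039 to 0.054, of Nr1d2 from -0.013 to 0.034 and of Arntl from -0.0037 to 0.14. Most of these fits hold fewer arrays, and the causes of the changes were not tested. Per2 and Per3 lie near background, and the filter on low entries removed them.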

Other observations

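Genes that answer glucocorticoid hormones, another daily signal that acts on Per1, did not pass in any comparison (limma, 12 of 12 measured). In LF day 56 against LF day 0 their median difference was 0.08, with the kinase Sgk1 at 0.28 (adjusted p = 0.472), Cdkn1a at 0.23 (0.490; under an intensity of 20) and the chaperone Fkbp5 at -0.29 (0.579). Of 10 immediate early genes, which respond within minutes to activity or handling, 0 passed the test in that comparison. Their median difference was -0.23 and 2 lay above 0, against 50.4% of all entries; 4 of the 10 were under an intensity of 20. Fos differed by -0.86 ± 0.40 (adjusted p = 0.454), Egr2 by -0.21 (0.461) and Junb by -0.26 (0.493), the last 2 under an intensity of 20. Of 9 temperature-responsive genes 7 were measured and 0 passed. The cold-inducible RNA-binding protein Cirbp differed by 0.23 (adjusted p = 0.537), the collagen chaperone Serpinh1 by -0.34 (0.120) and Hsph1 by -0.19 (0.673).

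The labels number the mice, 11 to 20 at day 0 and 141 to 160 at day 56, without saying what the order stands for. Each of the 10 clock genes was compared with this number, at day 56 with diet means removed (n = 20) and at day 0 (n = 10), 20 tests in all, and 0 passed a permutation test after adjustment (1 at an unadjusted p below 0.05). That 1 was Arntl at day 56, with r = -0.63 and rho = -0.65 (permutation p = 0.00468 and 0.00333; adjusted p = 0.0936 and 0.0666), -0.60 without the 2 mice farthest in number and -0.66 with array sets centred as well; in both of these settings 0 of the 20 tests passed. At day 0 its r was 0.39 (permutation p = 0.269, adjusted p = 0.610).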
